A study of Homo sapiens with 2 samples.

Results

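A set of genes used to recognise neuroendocrine cells or to hold neuronal genes silent were followed in H460, an established human line of large-cell lung carcinoma. They were chosen by symbol, as the rows of the deposited count tables whose Ensembl IDs map to NCAM1, INSM1, UCHL1, ENO2, CHGB, SYP, DLL3 and REST, and all 8 members were found among the 22965 genes listed. RNA-seq read counts came from 2 libraries, 1 of H460 cells carrying the pSin-puro vector and 1 of cells in which that vector delivered PKP2, both at passage 5 and grown in DMEM with serum. The libraries held 23513304 (vector) and 20319137 (PKP2) counts. The study asked which genes lie downstream of PKP2, a desmosomal plaque protein, whose own count was 181 and 1330 (log2 ratio 3.11).

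With 1 library per group no difference below has a replicate check, no test across cultures exists, and no p-value is given. Ratios are those of the PKP2 library over the vector library in CPM, the count over the scaled library size, on the log2 scale. Their 95% counting intervals are exact binomial intervals of the pair of counts and cover counting error only, not variation between cultures. PCR copies cannot be told from separate molecules in these reads, so the intervals may be too narrow even for counting error. Levels of different genes are compared as TPM, counts per transcript length scaled to the same sum in each library. A count summed over a whole culture cannot tell fewer cells expressing a gene from less RNA per cell.

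Neuroendocrine cells store peptide hormones and amines in dense-core granules and share much of their gene expression with neurons. Pathologists recognise neuroendocrine lung tumours, among them small-cell carcinoma and large-cell neuroendocrine carcinoma, by synaptophysin (SYP), chromogranins (CHGB is one), the adhesion molecule CD56 (NCAM1) and the transcription factor INSM1. UCHL1 and ENO2 encode abundant neuronal enzymes, and DLL3 an inhibitory Notch ligand of neuroendocrine tumour cells. REST works on the other side: it is a zinc finger repressor that binds RE1 elements of neuronal genes in other cells and brings histone deacetylases and demethylases to them.

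Promoter windows of 300 bases, from 250 before to 50 after a RefSeq transcription start on GRCh38.p14, were found for 4 of the 8 members, UCHL1, ENO2, SYP and REST, the last with 2 windows. The upstream stretches of SYP, a neuronal gene known to carry an RE1 element, and of REST, the repressor of such genes, are shown because they stand for the marker and the repressor side of the set. Both stretches stop before the first base that GENCODE release 29 places in an exon of any gene, on either strand. Capitals mark the GC box GGGCGG on either strand, which occurs in 44.9% of all windows of this length. The SYP stretch, of 184 bases, lies at chrX:49200260-49200443 on the minus strand and the REST stretch, of 226 bases, at chr4:56907650-56907875 on the plus strand.
SYP: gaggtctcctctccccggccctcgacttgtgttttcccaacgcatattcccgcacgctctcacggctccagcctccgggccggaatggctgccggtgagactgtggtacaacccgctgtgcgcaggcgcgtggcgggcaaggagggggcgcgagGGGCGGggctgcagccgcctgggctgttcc
REST: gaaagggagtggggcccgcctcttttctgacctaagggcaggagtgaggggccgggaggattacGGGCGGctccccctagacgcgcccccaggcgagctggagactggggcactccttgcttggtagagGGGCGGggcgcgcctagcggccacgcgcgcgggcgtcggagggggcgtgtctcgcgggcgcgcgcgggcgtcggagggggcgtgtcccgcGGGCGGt

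The SYP stretch held 1 GC box and was 70.1% G and C, and the REST stretch held 3 and was 75.2% G and C. Over the whole windows, GC content was 63.0% for UCHL1, 71.3% for SYP, 75% for ENO2 and 76.0% and 79.3% for the REST windows, against a median of 58.7% over all windows. The left part of RE1, searched as TTCAGCACC on both strands, was in none of these windows and in 0.379% of all. The right part, searched as GGACAGC on both strands, was in 1 of the REST windows and in 6.02% of all. The E-box CAGCTG was in none of them and in 17.9% of all, and TATAAA on either strand was in the UCHL1 window alone and in 11.6% of all. These letters were searched in this window only, and RE1 elements often lie elsewhere in a gene.

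The markers spanned more than 3 orders of magnitude, and only UCHL1 was abundant. In the vector library the order by TPM was UCHL1 (1218), REST (13.6), ENO2 (9.82), NCAM1 (4.08), DLL3 (3.54), SYP (2.95), INSM1 (0.965) and CHGB (0.214). By counting error alone NCAM1 (interval 3.60 to 4.61), DLL3 (2.81 to 4.41) and SYP (2.34 to 3.67) could not be placed in order. In the PKP2 library the order was UCHL1 (1340.0), REST (16.4), ENO2 (9.92), NCAM1 (8.61), SYP (2.87), DLL3 (2.58), CHGB (0.260) and INSM1 (0.195). SYP and DLL3 stood in the other order there, as did CHGB and INSM1, and in each pair the counting intervals in that library overlapped. The PKP2 intervals of ENO2 (8.74 to 11.2) and NCAM1 (7.83 to 9.43) overlapped as well. UCHL1 ranked 84 of all genes by TPM in vector cells and 68 in PKP2 cells, while SYP stood at the top 54.4% and top 54.1%. Among the other markers in the vector library NCAM1 was in the top 50.9% of listed genes, INSM1 in the top 66.5% and CHGB in the top 84.8%. The chromogranin more often stained by pathologists, CHGA, was higher, in the top 25.7%.

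**Figure D1:**
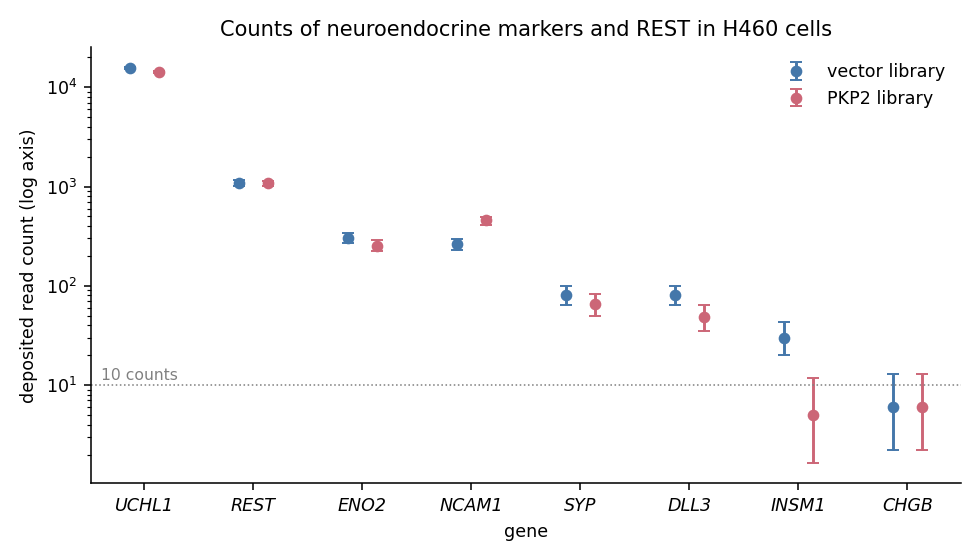
Deposited read counts of the 8 members in the vector (blue) and PKP2 (red) libraries on a log axis, with exact Poisson 95% intervals that cover counting error. UCHL1 is the highest in both libraries (15682 and 14225), NCAM1 is higher in the PKP2 library (262 and 455), INSM1 lower (30 and 5), and CHGB is at 6 in both.

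Between the libraries NCAM1 was the member farthest above 0 and INSM1 the farthest below, and the other members stayed within 2-fold. A mean of at least 10 counts was reached by 7 members, all but CHGB. Of these 7, 1 was at least 2-fold higher, against 2.47% of the 15991 genes with such a mean, and 1 at least 2-fold lower, against 4.61%. The median ratio of the 7 was -0.03, the same as over all these genes (-0.03). Counting intervals without 0 were seen for NCAM1, INSM1, UCHL1 and REST, a feature shared by 54.7% of the 15991 genes.

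NCAM1 (ENSG00000149294), which encodes the neural cell adhesion molecule, an immunoglobulin-type receptor that binds its like on neighbouring cells, was counted 262 times in vector cells and 455 times in PKP2 cells. That is 11.04 and 22.6 CPM, with the PKP2 library the higher. The fold was 2.05 (counting interval 1.75 to 2.39) and the log2 ratio 1.03 (0.81 to 1.26), so that the interval takes in 2-fold. The ratio was above that of 97.7% of genes averaging 10 counts or more. Among the 2510 genes with a mean count within 1.5 times that of NCAM1, 1.43% were at least 2-fold higher. An antisense gene overlaps its exons on the other strand (ENSG00000247416), with 2 counts in each library, and summed over both the ratio stayed at 1.03.

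INSM1 (ENSG00000173404), a zinc finger transcription factor of neuroendocrine differentiation, was counted 30 times in vector cells and 5 times in PKP2 cells. In CPM these are 1.26 and 0.248, with the PKP2 library lower. The log2 ratio was -2.35, and its interval of -4.07 to -0.97 is the widest but that of CHGB because so few reads were counted. Large ratios are common at such counts: of the 1597 genes with a mean count within 1.5 times that of INSM1, 14.0% were at least 2-fold lower and 6.95% at least 2-fold higher. INSM1 shares none of its 31-base stretches with another listed gene, and no gene overlaps it in the annotation. With 1 CPM added to both libraries its ratio was -0.86, and with 5 CPM -0.26.

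UCHL1 (ENSG00000154277), the ubiquitin C-terminal hydrolase known as PGP9.5, gave 15682 vector and 14225 PKP2 counts. Scaled to library size these are 661 and 706 CPM, nearly level. The log2 ratio of 0.10 (interval 0.06 to 0.13) is a 1.07-fold difference, and among the 202 genes with a mean count within 1.5 times that of UCHL1 the middle 95% of ratios ran from -0.58 to 0.81. UCHL1-DT, which overlaps it on the other strand, had 3 and 4 counts. The 3 genes nearest to UCHL1 in log2 TPM over the 2 libraries were NPM1P27, a pseudogene (1257 and 1301 TPM), and ENSG00000218426 and ENSG00000283041, which have no symbol here.

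ENO2 (ENSG00000111674), the neuron-specific enolase measured in serum of patients with small-cell carcinoma, gave 305 vector and 254 PKP2 counts. Its levels of 12.9 and 12.6 CPM give a ratio of -0.03 (interval -0.27 to 0.22). SYP (ENSG00000102003), a membrane protein of synaptic vesicles, had 81 and 65 counts, or 3.41 and 3.23 CPM, and a ratio of -0.08 (interval -0.57 to 0.41). Neither gene can be placed above or below 0 at this depth. The intervals leave room for 0.827-fold to 1.16-fold of the vector level for ENO2 and for 0.672-fold to 1.33-fold for SYP.

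CHGB (ENSG00000089199), chromogranin B of dense-core granules, had 6 counts in each library, or 0.253 and 0.298 CPM. Its ratio of 0.24 has an interval from -1.67 to 2.14, which leaves room for anything from 0.315-fold to 4.41-fold. DLL3 (ENSG00000090932), the inhibitory Notch ligand, gave 80 vector and 48 PKP2 counts. In CPM these are 3.37 and 2.38, a ratio of -0.50 whose interval, -1.05 to 0.03, takes in 0.

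REST (ENSG00000084093), the repressor, gave 1088 vector and 1083 PKP2 counts, 45.9 and 53.8 CPM. Its ratio was 0.23 (interval 0.11 to 0.35), a 1.17-fold difference. NOA1, a mitochondrial GTPase gene on the opposite strand, overlaps REST in its exons and had 1112 and 709 counts (ratio -0.41, interval -0.55 to -0.28). Whether counting used strand is not given in the sources used here, so reads of the pair may not be told apart. Summed over both genes the counts were 2200 and 1792, a ratio of -0.06 (interval -0.15 to 0.03), but this sum mixes genes that share almost no sequence.

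**Figure D2:**
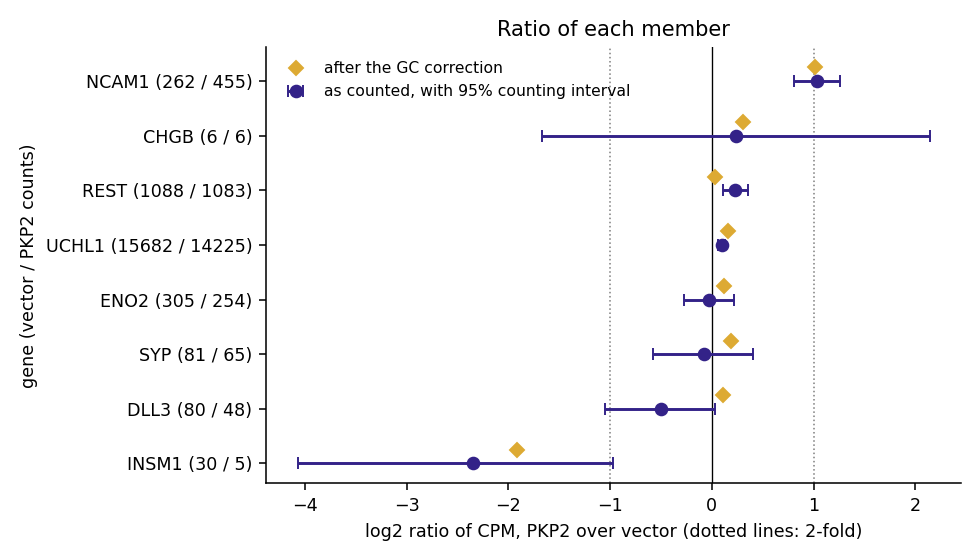
Log2 ratio of CPM (PKP2 over vector) for each member, with 95% counting intervals (circles) and after a correction for transcript GC content (diamonds); dotted lines mark 2-fold. NCAM1 at 1.03 and INSM1 at -2.35 are the members past 2-fold, and DLL3 goes from -0.50 to 0.11 with the correction.

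Ratios in these libraries went down as the GC content of the transcript went up, and the members lie at both ends of that range. Among genes averaging 100 counts or more, the median ratio was 0.25 in the decile poorest in G and C and -0.47 in the richest. REST, at 40.0% G and C, and DLL3, at 67.3%, are the members at the ends. Subtracting a smooth curve of ratio on GC content moved REST to 0.03, DLL3 to 0.11, SYP to 0.19, ENO2 to 0.12 and UCHL1 to 0.16. NCAM1 (48.1% G and C) stayed at 1.01, and INSM1 (63.1%) was at -1.91. After the correction 1 member was still at least 2-fold higher, against 2.35% of genes, and 1 at least 2-fold lower, against 3.49%. What sets the trend with GC content was not tested.

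**Figure D3:**
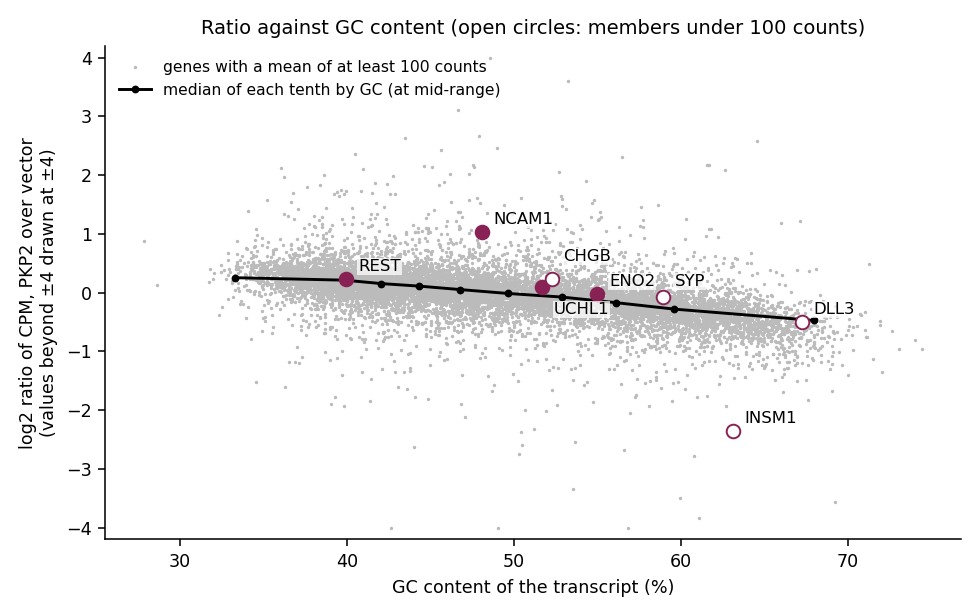
Log2 ratio of CPM against the GC content of each gene's transcript (%), for genes averaging 100 counts or more (grey) and the 8 members (filled circles, or open where the mean is under 100 counts); the line joins the decile medians by GC content. The medians go from 0.25 to -0.47, DLL3 at -0.50 lies on that line, and NCAM1 and INSM1 lie away from it.

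Most members have paralogs, and for ENO2, SYP, NCAM1, CHGB and DLL3 a paralog was the more abundant in both libraries. ENO1, the enolase of most tissues, was at 2839 and 2589 TPM, so that ENO2 was 0.342% and 0.379% of the summed level of ENO1, ENO2 and ENO3 (the muscle enolase; 20.2 and 19.1 TPM). SYPL1, the synaptophysin relative found outside neurons, was at 79.6 and 96.4 TPM, and SYP made up 3.57% and 2.89% of the SYP, SYPL1 and SYPL2 level. UCHL1 goes the other way: it made up 88.8% and 88.4% of the summed level of UCHL1, UCHL3, UCHL5 and BAP1, the other hydrolases of its class. UCHL3 had a ratio of -0.18, BAP1, the nuclear tumour suppressor, -0.10 and UCHL5, of the proteasome, 0.45 (4155 and 4829 counts).

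The chromogranin paralog of CHGB, CHGA, was far better counted. CHGA, the granule protein most used as a marker, gave 541 vector and 347 PKP2 counts, 23.9 and 18.6 TPM. Its ratio was -0.40 (interval -0.60 to -0.21), and -0.0013 after the GC correction. NCAM2, the paralog of NCAM1, stood at 0.69 with 1833 and 2509 counts (interval 0.60 to 0.78; 0.37 after the GC correction), and NCAM1 was 16.6% and 20.2% of their summed level. Of the other Notch ligands JAG1 (682 and 420 counts) was at -0.46 and JAG2 (601 and 304) at -0.75, both lower with intervals below 0. After the GC correction JAG1 was at -0.45 and JAG2 at -0.27. DLL1, with 10 and 5 counts, and DLL4, with 3 and 0, were too low to compare. Of the paralogs, 11 reached the count minimum and all 11 were within 2-fold, with 8 below 0. Their median was -0.14, and -0.0013 after the GC correction. Among all 15991 genes 14859 were within 2-fold and 47.3% above 0.

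**Figure D4:**
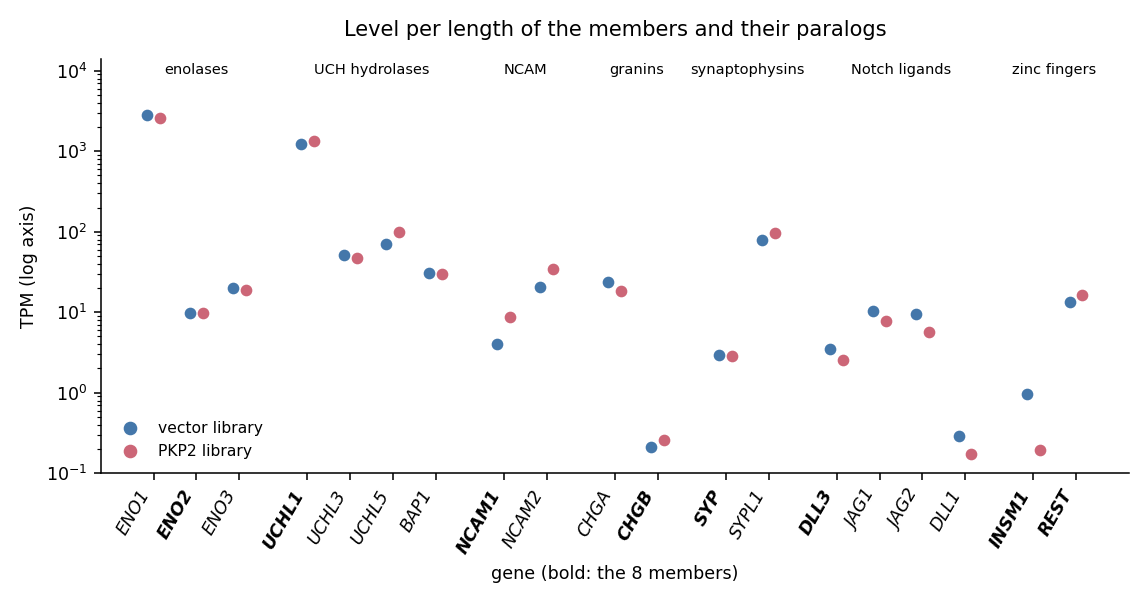
TPM of the members (bold) and their paralogs in the vector (blue) and PKP2 (red) libraries on a log axis, grouped by family. UCHL1 at 1218 and 1340.0 TPM stands above its relatives, while ENO2, SYP and NCAM1 stand below ENO1, SYPL1 and NCAM2 in both libraries.

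Other markers of neuroendocrine and neuronal cells were patchy, with some at high and some at very low levels. Of 36 such genes 24 had a count and 19 reached a mean of 10. CD24, a surface glycoprotein (86.8 and 113 TPM), RTN1, a reticulon of the endoplasmic reticulum (82.4 and 81.0 TPM), and L1CAM, a neural adhesion molecule (47.6 and 43.8 TPM), were the highest in the vector library. Of the 19, 1 was at least 2-fold higher and 3 lower, against 2.47% and 4.61% of all 15991 genes. Above 0 were 6 (47.3% of all genes) and below it 13, with a median of -0.20. After the GC correction the median was -0.08, with 1 lower (3.49% of all genes). MAPT, the microtubule protein tau, was the lowest at -1.74 (449 and 114 counts; interval -2.05 to -1.44), followed by KIF1A, a vesicle motor, at -1.10 (63 and 25 counts), and DPYSL5, of axon guidance, just past 2-fold (99 and 42 counts; interval -1.56 to -0.47). TUBB3, a neuronal tubulin, was at 2.08, but it overlaps ENSG00000198211 on the same strand, and 36.0% of its 31-base stretches also occur in other genes. Summed over the pair the ratio was 1.59 (interval 1.46 to 1.72).

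Transcription factors of neuroendocrine lineages were sparsely measured. Of 24 factors 12 had a count and 7 reached the minimum, and NEUROD1 and POU2F3, which define subtypes of small-cell carcinoma, were not analysed here. YAP1, the Hippo effector of the subtype without neuroendocrine features, had 1924 and 1947 counts, 32.5 and 39.9 TPM. NKX2-1, with 10 and 3 counts, ST18 with 9 and 2 and MYT1 with 8 and 5 were near the floor. SOX4 was at 0.62 (825 and 1078 counts), PROX1 at 0.73 with only 22 and 31 counts, and MYC at -0.30 (246 and 170 counts). All 7 were within 2-fold (median 0.28), as were 14859 of all 15991 genes.

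Genes that are low in neuroendocrine small-cell lines spanned a wide range of levels in both libraries. Of 25 such genes 24 had a count, and all 24 reached the minimum. LGALS3, galectin 3, was at 1232 and 1825 TPM and VIM, the mesenchymal filament vimentin, at 1116 and 1210 TPM. TGFBI was at 615 and 823 TPM, ANXA1 at 600 and 567 and MYOF at 470 and 630. IFITM3, with 52.2% of its 31-base stretches in other genes, was at 420 and 304 TPM. S100A10 was at 387 and 372 TPM and CAV1 at 214 and 280, and all of these stood above every member but UCHL1. AHNAK, a giant scaffold protein, came to 2187 and 2476 TPM with a principal transcript of only 1024 bases, but to 485 and 538 TPM with the mean length of its transcripts. The lowest were ITGB4, an integrin subunit, at 0.108 and 0.242 TPM and PLAU, the urokinase, at 0.980 and 1.86 TPM. EMP1 (3.43 and 3.56 TPM), TGFBR2 (4.69 and 6.07) and CCN1 (6.60 and 8.24) were near the levels of NCAM1, SYP and ENO2. Of these genes 17 were above 0 and 7 below, with a median of 0.26 (0.21 after the GC correction). By comparison, 47.3% of all 15991 genes were above 0 and 14859 were within 2-fold. ITGB4 alone of the list was past 2-fold at 1.13, with 7 and 13 counts and an interval that takes in 0. PLAU was at 0.88 (25 and 39 counts), LGALS3 at 0.52 and IFITM2 at -0.76, a gene with 42.7% of its 31-base stretches in others.

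The partners of REST were within 2-fold but for SRRM4, which was lower, and CTDSPL, which was higher. All 26 genes of that list, REST included, reached the minimum: 1 was at least 2-fold higher, 1 lower and 24 within, with a median of -0.08 (-0.02 after the GC correction). Among all 15991 genes 2.47% were at least 2-fold higher and 4.61% lower. The corepressor RCOR1 was at 0.16 (2199 and 2079 counts), the demethylase KDM1A at -0.10 (4296 and 3409), HDAC1 at -0.06, HDAC2 at 0.21 and SIN3A at -0.17. SRRM4, the neural splicing factor that turns REST transcripts into a truncated form, went from 22 counts to 4, a ratio of -2.22 (interval -4.22 to -0.66). Its mean count is within 1.5 times that of INSM1, and 14.0% of genes in that range were at least 2-fold lower. SRRM4 lay below the middle range of ratios of those genes, -2.09 to 1.41. Its ratio was above that of only 0.57% of genes averaging 10 counts or more. CTDSPL, a small phosphatase recruited by REST, stood at 2.02 with 141 and 487 counts (interval 1.75 to 2.31; 1.96 after the GC correction), and no gene overlaps its exons in the files. BTRC, the F-box protein that marks REST for degradation, was at -0.51 (1020 and 610 counts), RCOR2 at -0.76 (134 and 67) and SRRM3 at -0.72 (161 and 83; -0.08 after the GC correction).

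Neuronal genes known to carry RE1 elements went both ways. Of 34 genes 26 had a count and 23 reached the minimum: 2 were at least 2-fold higher, 4 lower and 17 within, with 16 below 0 and 7 above. Over all 15991 genes 2.47% were higher, 4.61% lower and 47.3% above 0. The median of the RE1 list was -0.21, and 0.04 after the GC correction. With the correction 3 of the list were higher and 3 lower, against 2.35% and 3.49% of all genes. NEFH, the heavy neurofilament, went from 129 counts to 24, a ratio of -2.19 (interval -2.88 to -1.55). SCN2A, a sodium channel (22 and 3 counts), and CHRNB2, a nicotinic receptor subunit (17 and 4), were at -2.64 and -1.85, and CPLX1, complexin 1, was just past 2-fold (92 and 39 counts; interval -1.58 to -0.45). KCNIP2, a potassium channel partner, was at 2.30 with 6 and 25 counts, and at 1.28 when summed with an antisense gene over its exons. NEFL, the light neurofilament, was the most abundant of them (151 and 120 TPM; ratio -0.38), followed in the vector library by L1CAM and BDNF (43.7 and 57.1 TPM), a growth factor at 0.34.

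Around DLL3 in the Notch pathway, NOTCH1, NOTCH3, the JAG ligands and several target genes were lower in the PKP2 library. After the GC correction the ratios of NOTCH1, NOTCH3, JAG2, NRARP and HES6 were closer to 0, while those of JAG1, HES1 and HEY1 hardly moved. Of 43 genes 40 had a count and 37 reached the minimum, DLL3 among them: 1 was at least 2-fold higher, 3 lower and 33 within. In all 23 were below 0 and 14 above, with a median of -0.28 (-0.03 after the GC correction, with none at least 2-fold lower). Across all 15991 genes 2.47% were at least 2-fold higher, 4.61% lower (3.49% after the correction) and 47.3% above 0. NOTCH1 went from 1717 counts to 782, a ratio of -0.90 (interval -1.02 to -0.78; -0.47 after the GC correction). NOTCH3, the most abundant receptor gene (133 and 91.6 TPM), was at -0.58 and -0.15 after the correction, while NOTCH2 was at 0.12. Among target genes and HES family genes, NRARP, a feedback inhibitor, was at -1.30 (87 and 30 counts; -0.69 after the correction) and HES6 at -1.16 (66 and 25; -0.58 after it). HES1, the repressor of neuroendocrine fate genes, was at -0.72 (91 and 47; interval -1.26 to -0.19) and at -0.69 after the correction. HEY1 was at -0.46 (175 and 108; -0.49 after the correction). HES4 went from -0.36 (44 and 29 counts; interval -1.09 to 0.34) to 0.54 with the correction, and HES2, with 13 and 18 counts, was at 0.71 (interval -0.40 to 1.86; 0.93 after the correction).

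Of the enzymes that cut Notch, ADAM10 was at 0.44, ADAM17 at 0.28 and NCSTN, nicastrin, at 0.24, above 0, while PSENEN (-0.12), PSEN2 (-0.23), APH1A (-0.30) and APH1B (-0.75) were below 0. RBPJ, the DNA-binding partner of cleaved Notch, was at 0.21 (1722 and 1687 counts). RFNG, a fringe glycosyltransferase, was at -1.19 (351 and 131 counts), but summed with GPS1, which overlaps it on the other strand, at -0.54. NOTCH4 was at 2.20 with only 10 and 39 counts, and at 1.05 when summed with GPSM3, which overlaps it on the same strand.

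In the list of genes that act with NCAM1 the ratio farthest from 0 was that of PRNP. PRNP, the prion protein, a membrane partner of NCAM1, went from 5659 vector counts to 1111 PKP2 counts. It was 4.32-fold lower, a ratio of -2.11 (interval -2.21 to -2.02; -2.15 after the GC correction), none of its 31-base stretches occurs in another gene, and no gene in the files overlaps its exons. The polysialyltransferases, which add long sialic acid chains to NCAM1, were both lower, ST8SIA2 at -0.38 (156 and 102 counts; interval -0.75 to -0.01) and ST8SIA4 at -0.37 (552 and 362; interval -0.57 to -0.18). Of the L1 family of adhesion molecules CHL1 was at 0.77 (242 and 351 counts), NRCAM at 0.57 (5816 and 7334), NFASC at 0.47 (39 and 46; interval taking in 0) and L1CAM at -0.16. CADM1, another adhesion molecule of small-cell tumours, was at -0.80 (250 and 122). The receptor FGFR1 was at 0.07 and the kinase FYN at -0.55 (31 and 18). Over the 15 genes, 1 was at least 2-fold lower (4.61% of all 15991 genes) and none higher (2.47% of them), with a median of 0.07.

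Granule and vesicle genes around CHGB and SYP held no gene past 2-fold among those with enough counts. Most genes were so placed: 14859 of all 15991 were within 2-fold, and 47.3% were above 0. All 20 of the granule and prohormone genes that reached the minimum were within 2-fold, 13 above 0 and 7 below (median 0.15). SCG2, secretogranin II, was at 0.27 (528 and 541 counts), CPE, carboxypeptidase E, at -0.34, CPD at 0.55, RAB3A, a vesicle GTPase, at 0.61 (47 and 61 counts), SYTL4, a granule tether, at 0.60 and PCSK1N, an inhibitor of prohormone convertase, at -0.96 (142 and 62 counts; -0.03 after the GC correction). RAB3B was the most abundant (110 and 132 TPM). The 20 measured synaptic vesicle genes, SYP included, were also all within 2-fold (median -0.03; 0.11 after the correction). RAB3C, at 0.83 (8154 and 12332 counts), and SYNGR2, synaptogyrin 2, at 0.67 were the highest.

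The metabolic neighbours of ENO2 and UCHL1 were within 2-fold, as were 14859 of all 15991 genes, of which 47.3% were above 0. Of 18 enolase and glycolysis genes 14 were below 0 and 4 above, with a median of -0.13 (0.05 after the GC correction), from PFKL, liver phosphofructokinase, at -0.69 and ALDOC, the brain aldolase, at -0.65 to LDHA at 0.16. GAPDH (8550 and 7660 TPM) and ENO1 were the most abundant, at -0.20 and -0.18. Of 11 ubiquitin and hydrolase genes 7 were below 0 and 4 above (median -0.10; 0.06 after the correction), with UCHL5 the highest at 0.45. UBB, a polyubiquitin gene, was at 746 and 707 TPM.

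**Figure D5:**
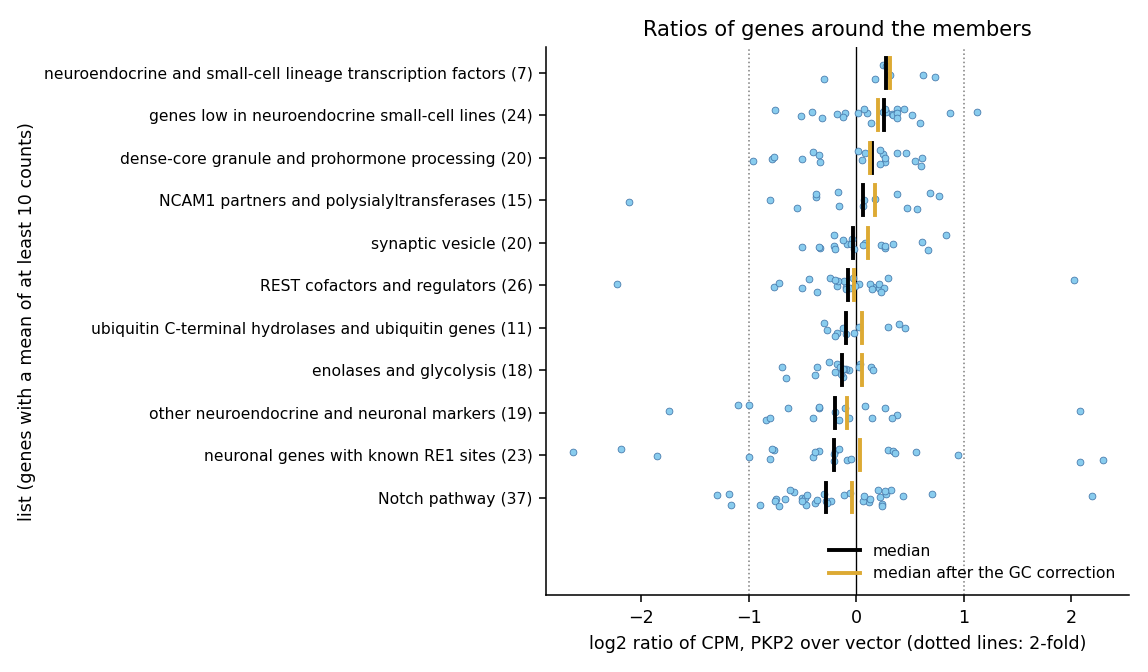
Log2 ratio of CPM for each gene averaging 10 counts or more (points, spread vertically at random within a list) in 11 lists of genes around the members, with the median as counted (black) and after the GC correction (yellow); the number of genes is in brackets. The Notch list has the lowest median (-0.28), which goes to -0.03 with the correction. PRNP at -2.11, CTDSPL at 2.02 and SRRM4 at -2.22 (on only 22 and 4 counts) lie far from their lists.

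Markers of other cell types were checked beside these values. Of 5 epithelial genes 4 were measured, with a summed level of 1223 CPM in vector cells and 1233 in PKP2 cells, in which KRT19 was at 1.08 and KRT8 at -0.58. The 4 measured of 6 fibroblast genes summed to 52.3 and 30.3 CPM (COL3A1 at -1.31, PDGFRB at 1.14), and the 3 of 6 leukocyte genes to 19.2 and 21.6 CPM, most of it CD68, of whose 31-base stretches 81.3% occur in other genes. The 2 alveolar genes summed to 3.62 and 1.64 CPM, the 2 endothelial genes to 0.169 and 0 CPM and TP63, the squamous gene measured, was at 0.126 and 0.0497 CPM. NAPSA, LYZ, VWF and KDR were at 0 in the PKP2 library. The part of other cells in the ratios of the members was not tested.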

How the data were processed

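Libraries were prepared from H460 total RNA with a TruSeq RNA kit of Illumina, per the labels' protocols. Bowtie 0.12.2 and the builds GRCh37 and hg19 are named in the submitters' processing notes. For the counting program, its annotation and its use of strand, nothing is given in the sources used here. The authors deposited estimated counts for each Ensembl gene without normalization, per the file headers. These are whole numbers apart from 1 damaged row, and 2 rows of each file without a readable gene count were left out. No gene listed was at 0 in both libraries.

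Library sizes were total counts scaled by TMM (factors 1.01 in the vector and 0.991 in the PKP2 library), for which edgeR 4.0.16 under R 4.3.3 served, with no count model fitted. Ratios had no pseudocount. A count of 0 was set to a floor of 3 counts (0.126 and 0.149 CPM). Genes averaging 10 counts or more entered counts and medians. Transcript length and GC content came from GENCODE release 29 by gene ID (99.4% of these genes), from the principal transcript or else the longest. Its build, GRCh38, differs from that of the counts. Its coordinates served only to find which genes share exons, for the summed counts of overlapping genes, so those pairs are as in that release. For the GC correction a lowess curve of statsmodels 0.14.6, with a fraction of 0.3, was fitted to genes averaging 100 counts or more and subtracted. Sequence shared between genes was measured as the part of the 31-base stretches of a gene, in percent, that occur in any other listed gene. Further steps ran in Python 3.11.15, pandas 2.3.3, SciPy 1.17.1 and matplotlib 3.10.9, and the ratio and interval steps were tested on simulated data.

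The members and gene lists were chosen with earlier results of these data known. Named genes were PKP2, the members, their paralogs and overlapping genes, up to 5 genes per list with ratios farthest from 0, the 3 most abundant per list, listed genes past 2-fold averaging 100 counts or more, and the 3 genes nearest to the most abundant member. Other genes of the lists named here were chosen after their values were seen. Alternatives were other scalings (DESeq2 1.42.0 size factors among them), pseudocounts, count minimums, fold thresholds, transcript lengths and the GC correction. Some genes of these lists are not reported here.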

Additional observations from a re-analysis of the deposited data

How the results depend on the processing

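No paired analysis was possible because each group has 1 library. Scaling by total counts, DESeq2 size factors or upper quartiles turned the direction of no member or list median and moved the median of all genes by -0.03 to 0.02. With 5 CPM added the ratio of PKP2 was 2.49, of NCAM1 0.78 and of INSM1 -0.26, and with 1 CPM added INSM1 was at -0.86. No member was at least 2-fold higher or lower with 1 or 5 CPM added, so the counts of members go from 1 to 0. None was 3-fold higher, and none averaging 100 counts or more was 2-fold lower, since INSM1 is under that minimum. The GC correction put ENO2 at 0.12, SYP at 0.19 and DLL3 at 0.11, above 0, UCHL1 at 0.16 and REST at 0.032. It also turned the medians of RE1 genes (0.040), synaptic vesicle genes (0.11), glycolysis genes (0.051) and ubiquitin genes (0.058). The cause of these shifts was not tested. At a mean of at least 100 counts the medians of other neuroendocrine markers (0.0056), synaptic vesicle genes (0.071) and NCAM1 partners (-0.16) changed sign.

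Over all genes 395 were at least 2-fold higher and 737 lower. These counts were 180 and 249 with 1 CPM added, 106 and 81 with 5 CPM added, 1312 and 1728 with no count minimum, and 161 and 209 at a mean of at least 100 counts. They were 1098 and 2060 at 1.5-fold and 114 and 251 at 3-fold. By mean transcript length the level in the vector library was 30.5 TPM for REST, 7.08 for NCAM1 and 0.617 for INSM1, and SYP (3.89) stood above DLL3 (3.42). Depth limits CHGB and INSM1 most, with 6 and 6 and 30 and 5 counts.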
